A study of Mus musculus with 16 samples.

Results

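Integrins are the main adhesion receptors of T cells. The 10 genes described here are *Itgal*, *Itgb2*, *Itga4*, *Itgb7*, *Itgae*, *Itgb1*, *Itga1*, *Itga6*, *Itgav* and *Itgb3*, out of the 54532 genes in the count table. These 10 genes were chosen by name with earlier results of the same samples known, so every level and every difference given for them below counts as a measure that may have selected them. They are given as a description. Whether a gene passed the threshold in the fit over all genes is stated as part of that description, is no independent test of it, and supports nothing here. Of the 10, 9 had enough counts to enter the fits and *Itga1* did not. The other 17 integrin subunit genes of the mouse and the genes around integrin function were listed by function and are given with their tests. These lists were also drawn up with earlier results of the same samples known. Genes named from them were mostly those with the largest change. Their adjusted p-values therefore describe these samples and are no independent test either.

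The RNA came from naive CD8+ T cells of C57BL/6J mouse spleens that had been activated repeatedly in vitro over 4 days, which gives TCF1+CD8+ T cells, a stem-like state. For 1 h the cells received prostaglandin E2 (PGE2, 100 ng/ml), a lipid mediator that signals in T cells through EP2 and EP4, or no PGE2. For the next 4 h they were kept either in IL-2 (85 U/ml) alone, here called unstimulated, or in IL-2 with beads carrying antibodies to CD3 and CD28 (1 bead per cell), here called stimulated. Each of the 4 groups (unstimulated untreated, unstimulated PGE2, stimulated untreated and stimulated PGE2) had 4 replicates, so all groups had received IL-2, all cells had been activated in culture before, and no cells from tissue were measured. The study's methods describe its mice as young and sex-matched. The sources used here do not say what same-numbered replicates have in common.

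An integrin is a heterodimer of 1 alpha and 1 beta chain, and the pair decides the ligand. In T cells, alphaL beta2 (LFA-1) binds ICAMs and holds the contact with antigen-presenting cells, alpha4 beta1 (VLA-4) binds VCAM-1 and fibronectin, alpha4 beta7 binds MAdCAM-1 of gut vessels, and alphaE beta7 (CD103) binds E-cadherin of epithelia and marks many tissue-resident CD8+ T cells. The alphaV chain pairs with beta1, beta3 and others to bind fibronectin, vitronectin and latent TGF-beta, and alpha1 beta1 and alpha6 beta1 bind collagen and laminin. A chain without its partner does not reach the cell surface in quantity, and binding also depends on a switch in shape driven by talin, kindlin and the GTPase Rap1, so a level of mRNA is neither a level of surface receptor nor of adhesion.

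Sequencing totals were 22678254 to 42950763 counts per sample, with a median of 30211840.5. The T cell genes *Cd3e* and *Cd8a* were at 218 to 344 and 666 to 1209 counts per 1000000 (CPM, on TMM-adjusted totals), and *Tcf7*, which encodes TCF1, was at 289 to 1539 CPM. *Tcf7* reached 1478 CPM in unstimulated untreated and 1539 CPM in unstimulated PGE2 samples. In the stimulated untreated and PGE2 groups its highest sample was below that of *Cd8a*, at 1209 and 930 CPM. Of 25 markers of other cell types, 19 stayed under 1 CPM in every sample and 7 of these had no count at all. The summed level of the 4 dendritic cell markers, mostly *Zbtb46*, was 2.51 to 6.16 CPM in unstimulated and 10.6 to 17.8 CPM in stimulated samples. *Siglech* among them was at 0. That of the 2 CD4+ T cell markers, mostly *Zbtb7b*, was 21.5 to 36.2 CPM in unstimulated and 10.4 to 22.8 CPM in stimulated samples. The part of such cells in the values below was not tested. In bulk RNA, fewer cells that express a gene and less RNA per cell cannot be told apart.

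Promoter sequence is shown for 4 genes that moved in pairs when beads were added: *Itgav* and *Itgb1*, which rose, and *Itga4* and *Itgb7*, which fell. Each run holds the 250 bases before RefSeq's gene start, read 5′ to 3′ on the gene's strand, from RefSeq on GRCm38.p6, whose table matched 5 of the 10 genes. They lie at chr2:83724147-83724396 (plus strand), chr8:128685404-128685653 (plus strand), chr2:79255176-79255425 (plus strand) and chr15:102231936-102232185 (minus strand). For *Itgb7* that start lies a few bases inside the gene as the count table places it, and distances are from RefSeq's start. Capitals mark matches to 4 short motifs searched on both strands: the core TGACG (or CGTCA) of the cAMP response element, the CCACCC (or GGGTGG) box of KLF and SP factors, the RUNX core TGTGGT (or ACCACA) and the AP-1 site TGAGTCA (or TGACTCA). None of the matches in these runs overlap.
Itgav: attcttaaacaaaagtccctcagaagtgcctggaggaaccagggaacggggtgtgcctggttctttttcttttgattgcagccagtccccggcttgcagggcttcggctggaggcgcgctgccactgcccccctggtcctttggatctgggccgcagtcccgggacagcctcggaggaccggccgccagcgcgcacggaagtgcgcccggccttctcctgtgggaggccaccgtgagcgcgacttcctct
Itgb1: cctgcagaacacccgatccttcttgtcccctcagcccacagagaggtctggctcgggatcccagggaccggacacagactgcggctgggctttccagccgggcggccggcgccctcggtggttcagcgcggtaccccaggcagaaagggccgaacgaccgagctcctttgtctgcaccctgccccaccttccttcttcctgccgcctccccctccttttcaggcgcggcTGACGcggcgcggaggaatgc
Itga4: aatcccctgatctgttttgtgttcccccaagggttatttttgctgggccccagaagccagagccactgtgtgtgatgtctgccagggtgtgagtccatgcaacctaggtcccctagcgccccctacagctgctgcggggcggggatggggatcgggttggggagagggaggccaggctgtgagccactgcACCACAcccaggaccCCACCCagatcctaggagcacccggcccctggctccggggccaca
Itgb7: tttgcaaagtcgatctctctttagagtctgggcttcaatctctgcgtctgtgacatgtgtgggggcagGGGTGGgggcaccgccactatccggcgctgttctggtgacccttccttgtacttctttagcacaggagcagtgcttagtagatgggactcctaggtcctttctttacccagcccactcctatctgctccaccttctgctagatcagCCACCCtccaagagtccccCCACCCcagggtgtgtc
The *Itgb1* run holds 1 TGACG whose first base is 21 bases before the gene start, the *Itga4* run holds 1 ACCACA at 60 and 1 CCACCC at 45 bases before it, and the *Itgb7* run holds the KLF and SP box 3 times, at 182, 36 and 17 bases. No motif was found in the *Itgav* run. Among 32851 promoters of the same length, 17.8% held the cAMP response core, 28.1% the KLF and SP box, 14.0% the RUNX core and 4.46% the AP-1 site. These matches are letters in a window and were not tested as binding sites.

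Under PGE2 *Itgae* was lower and *Itgb3* higher, each called with and without beads, and *Itgb1* was lower without beads. The samples of *Itgb3* with and without PGE2 overlapped in unstimulated cells, although each PGE2 sample was above the untreated sample of the same replicate number. A gene is called when its adjusted p in the fit over all genes was below 0.05, and a differentially expressed gene (DEG) also differed at least 2-fold. In stimulated cells 5 of the 9 tested integrin genes were called, 2 higher (*Itgb3*, *Itga4*) and 3 lower (*Itgae*, *Itgal*, *Itgb2*), and 1 was a DEG (*Itgb3*). Over all 13922 genes tested there, 9.84% were called, 6.04% higher and 3.80% lower, and 1.75% were DEGs. In unstimulated cells 5 of 9 were called, 1 higher (*Itgb3*) and 4 lower (*Itgae*, *Itgb1*, *Itgal*, *Itgb2*), with *Itgae* the 1 DEG. The background there was 28.4% of 14505 genes called, 12.9% higher and 15.5% lower, with 3.38% DEGs. The median log2 difference of the 9 genes was -0.23 in stimulated and -0.24 in unstimulated cells, against -0.0061 and -0.0010 over all genes tested. With the replicate number as a block, 7 integrin genes were called in stimulated and 8 in unstimulated cells, and 5544 genes instead of 1370 and 6938 instead of 4122 over the whole table. Because the choice of genes may have used these contrasts, nothing is read from those counts.

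More integrin genes were called for beads than for PGE2, as were more genes of the whole table. Without PGE2, 8 of the 9 tested genes were called, 3 higher (*Itgav*, *Itgb1*, *Itgal*) and 5 lower (*Itgb3*, *Itga4*, *Itga6*, *Itgb7*, *Itgae*), and 5 were DEGs. Among all 14205 genes 66.5% were called, 31.7% higher and 34.8% lower, and 23.2% were DEGs. With PGE2 the same 8 genes were called in the same directions, and 3 were DEGs (*Itgav*, *Itgb3*, *Itga6*), beside 64.2% of 14507 genes called, 32.5% higher and 31.7% lower, and 22.1% DEGs. The median log2 difference of the 9 genes was -0.98 without and -0.69 with PGE2, against -0.031 and 0.0022 over all genes tested. The 2 PGE2 comparisons and the 2 bead comparisons share groups, so each is given by its own values.

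**Figure D1:**
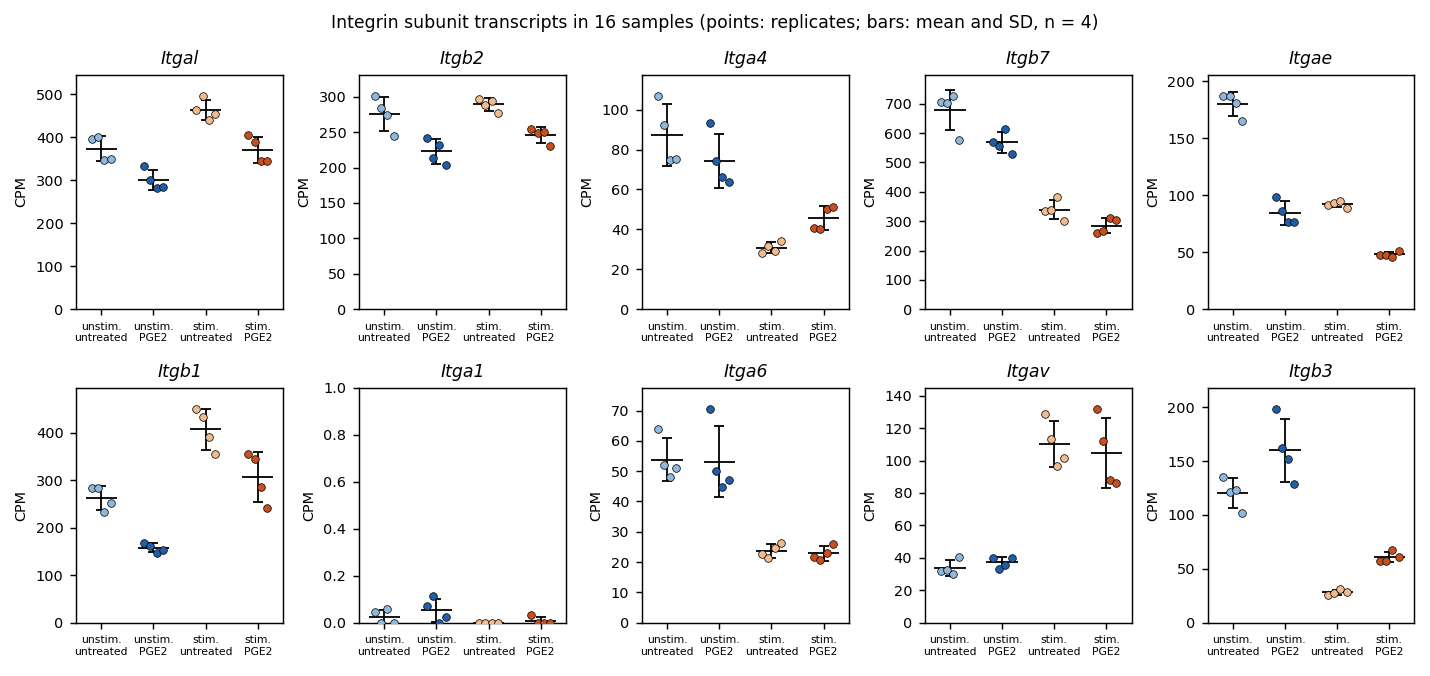
Level of each integrin gene in CPM (linear axes from 0) in the 4 groups, with 1 point per sample and bars for the mean and SD (n = 4). The 4 PGE2 samples of *Itgae* lie below the 4 untreated samples both with and without beads, and the *Itgb3* samples with beads all lie below those without.

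The chains of LFA-1 moved little. *Itgal* encodes the alphaL chain (ENSMUSG00000030830, chromosome 7, 127296260 to 127335138, plus strand, GRCm38). Its level was 396, 400.4, 348 and 348 CPM in the unstimulated untreated replicates 1 to 4, 332, 301, 282 and 284 CPM in the unstimulated PGE2 replicates, 464, 496, 439.9 and 455 CPM in the stimulated untreated replicates, and 404, 389, 345 and 344 CPM in the stimulated PGE2 replicates. All PGE2 samples were below all untreated samples of the same stimulation, and beads raised both. The log2 difference for PGE2 was -0.32 (SE 0.076) with and -0.30 (SE 0.068) without beads, and for beads 0.30 (SE 0.077) without and 0.32 (SE 0.083) with PGE2.

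*Itgb2*, the beta2 chain shared by LFA-1 and the myeloid integrins (ENSMUSG00000000290, chromosome 10, 77530252 to 77565708, plus strand), was at 301, 284, 274 and 244 CPM in unstimulated untreated cells and 242, 214, 232 and 203 CPM with PGE2. In stimulated cells it was at 297, 288, 294 and 277 CPM without and 255, 249, 250.0 and 230.4 CPM with PGE2. The groups with and without PGE2 did not overlap, whereas those with and without beads did. The log2 difference for PGE2 was -0.23 (SE 0.060) with and -0.29 (SE 0.075) without beads, and for beads 0.054 (SE 0.076, which turned to -0.041 with upper-quartile factors) without and 0.16 (SE 0.075) with PGE2. The PGE2 calls of both chains in stimulated cells depended on single libraries: of the 8 fits that each left out 1 library, *Itgal* was called in 2 (those without stimulated untreated replicate 4 or stimulated PGE2 replicate 1) and *Itgb2* in 0, with 3 called integrin genes in 6 of these fits instead of 5. *Itgb2* was not called there without the filter on low counts or by limma on FPKM either. In unstimulated cells both calls were lost without untreated replicate 2, and that of *Itgb2* also without PGE2 replicate 2.

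*Itgae* encodes the alphaE chain, CD103 (ENSMUSG00000005947, chromosome 11, 73090583 to 73147446, plus strand). In unstimulated cells its level was 187, 187, 181 and 165 CPM without PGE2 and 98.4, 86.2, 76.5 and 76.2 CPM with it. In stimulated cells it was 91.1, 92.9, 94.6 and 89.0 CPM without PGE2 and 48.0, 47.6, 46.1 and 50.8 CPM with it. No PGE2 sample reached the lowest untreated sample of the same stimulation, and the unstimulated PGE2 samples overlapped with the stimulated untreated ones. Under PGE2 *Itgae* fell by 52.5% in unstimulated cells (log2 difference -1.08, SE 0.077) and by 47.4% in stimulated cells (-0.93, SE 0.059). For beads the log2 difference was -0.98 (SE 0.067) without and -0.79 (SE 0.084) with PGE2, and the cells that received both had the lowest level. The change under PGE2 with beads less that without was 0.16 on the log2 scale (SE 0.107) and was not called.

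*Itgb7* encodes the beta7 chain, the partner of alphaE and alpha4 (ENSMUSG00000001281, chromosome 15, 102215995 to 102231944, minus strand). Unstimulated cells had 707, 704, 727 and 577 CPM without and 571, 557, 614 and 530.2 CPM with PGE2. Stimulated cells had 335, 338, 381 and 301 CPM without and 258, 267, 309.8 and 302 CPM with PGE2. The groups with and without PGE2 overlapped, and those with and without beads did not. Between samples of the same number, PGE2 samples were lower in every unstimulated pair and in all stimulated pairs but replicate 4. The PGE2 difference was -0.25 (SE 0.091) with and -0.24 (SE 0.083) without beads on the log2 scale and was not called, but both were called once the replicate number was fitted as a block. The difference in unstimulated cells was also called by DESeq2, without the filter, in 1 fit of all 16 samples and without untreated replicate 4 or PGE2 replicate 3. With beads *Itgb7* fell 2.02-fold without PGE2 (-1.02, SE 0.097) and 1.98-fold with it (-0.99, SE 0.079). Per sample, the FPKM of *Itgae* (fragments per kilobase scaled to library size, which corrects for gene length) divided by that of *Itgb7* was 0.161 ± 0.00927 (SD, n = 4) in unstimulated untreated, 0.0900 ± 0.0121 in unstimulated PGE2, 0.165 ± 0.0118 in stimulated untreated and 0.103 ± 0.00975 in stimulated PGE2 cells. The PGE2 samples did not overlap with the untreated ones in this ratio, whereas samples with and without beads did.

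*Itga4* encodes the alpha4 chain of VLA-4 and of the gut homing receptor (ENSMUSG00000027009, chromosome 2, 79255426 to 79333123, plus strand). It was at 107, 92.5, 74.9 and 75.0 CPM in unstimulated untreated cells and 93.2, 74.1, 66.2 and 63.6 CPM in unstimulated PGE2 cells. It was at 28.0, 31.6, 29.3 and 34.3 CPM in stimulated untreated cells and 40.8, 40.2, 50.1 and 51.2 CPM in stimulated PGE2 cells. Every stimulated sample was below every unstimulated one, and within the stimulated cells every PGE2 sample was above every untreated one. PGE2 raised *Itga4* 1.49-fold in stimulated cells (log2 difference 0.57, SE 0.105), whereas in unstimulated cells the groups overlapped, with -0.21 (SE 0.129) and no call except with the replicate block. Each unstimulated PGE2 sample was nevertheless below the untreated sample of the same number. With beads it fell 2.86-fold without PGE2 (-1.52, SE 0.112) and 1.61-fold with it (-0.69, SE 0.121). Of the exon bases of *Itga4*, 8.04% also belong to *Cerkl* on the opposite strand, which was at a mean of 1.40 CPM.

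The FPKM of *Itgae* divided by that of *Itga4* compares the alpha chains that can pair with beta7. It was 6.39 ± 0.855 (SD, n = 4) in unstimulated untreated cells and 9.17 ± 0.946 in stimulated untreated cells. With PGE2 it was 3.49 ± 0.187 in unstimulated and 3.26 ± 0.403 in stimulated cells. The untreated samples ranged from 5.34 to 9.93 and the PGE2 samples from 2.80 to 3.66, so these ratios did not overlap.

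*Itgb1* encodes the beta1 chain, the most widely shared beta chain (ENSMUSG00000025809, chromosome 8, 128685654 to 128733200, plus strand). Its level was 283, 284, 233 and 252 CPM in unstimulated untreated cells, 168, 161, 147 and 154 CPM in unstimulated PGE2 cells, 449.5, 433, 390.0 and 355 CPM in stimulated untreated cells and 355, 344, 286 and 242 CPM in stimulated PGE2 cells. PGE2 samples were clearly lower in the unstimulated cells, while in the stimulated cells the highest PGE2 sample all but met the lowest untreated one. These came from different replicate numbers, and between samples of the same number the PGE2 sample was always the lower. In unstimulated cells *Itgb1* fell by 39.3% under PGE2 (log2 difference -0.72, SE 0.070). In stimulated cells the difference was -0.40 (SE 0.125) and not called, but it was called with the replicate block, in DESeq2, without the filter on low counts, in 1 fit of all 16 samples and without stimulated PGE2 replicate 1. Beads raised *Itgb1* by 0.62 (SE 0.097) without and 0.98 (SE 0.121) with PGE2.

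*Itga6*, the alpha6 chain that binds laminin with beta1 (ENSMUSG00000027111, chromosome 2, 71745616 to 71858416, plus strand), followed the beads and not PGE2. It was at 64.1, 52.0, 48.2 and 51.0 CPM in unstimulated untreated, 70.5, 50.2, 44.9 and 46.9 CPM in unstimulated PGE2, 22.6, 21.3, 24.5 and 26.4 CPM in stimulated untreated and 21.7, 20.5, 23.1 and 26.0 CPM in stimulated PGE2 cells. Stimulated and unstimulated samples did not overlap. The PGE2 difference was -0.046 (SE 0.101) with beads and -0.0011 (SE 0.127) without. With beads *Itga6* fell 2.29-fold without PGE2 (log2 difference -1.20, SE 0.096) and 2.30-fold with it (-1.20, SE 0.133).

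*Itga1*, the alpha1 chain of the collagen receptor VLA-1 (ENSMUSG00000042284, chromosome 13, 114953096 to 115101964, minus strand), had 1, 0, 2 and 0 counts in unstimulated untreated, 2, 4, 0 and 1 in unstimulated PGE2, 0 in each stimulated untreated and 1, 0, 0 and 0 in the stimulated PGE2 replicates. That is 11 counts in all 16 libraries together. No difference was detectable at this depth.

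*Itgav* encodes the alphaV chain (ENSMUSG00000027087, chromosome 2, 83724397 to 83806916, plus strand). Its level was 31.9, 32.6, 29.7 and 40.6 CPM in unstimulated untreated and 39.8, 32.8, 35.8 and 40.1 CPM in unstimulated PGE2 cells. With beads it was 129, 113, 96.9 and 101 CPM without and 132, 112, 87.9 and 86.3 CPM with PGE2. All stimulated samples were above all unstimulated ones, and PGE2 and untreated samples overlapped in both states. The rise with beads was 3.24-fold without PGE2 (log2 difference 1.70, SE 0.117) and 2.85-fold with it (1.51, SE 0.143). For PGE2 the difference was -0.066 (SE 0.141) with beads and 0.16 (SE 0.099) without, and the latter was called only with the replicate block and without unstimulated untreated replicate 4. *Itgav* shares 5.90% of its exon bases with *Gm13684* on the opposite strand, which was at 0.279 CPM.

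*Itgb3* encodes the beta3 chain, best known with alphaIIb on platelets and with alphaV elsewhere (ENSMUSG00000020689, chromosome 11, 104608000 to 104670476, plus strand). It was at 135, 121, 124 and 102 CPM in unstimulated untreated and 198, 162, 152 and 128 CPM in unstimulated PGE2 cells. It was at 25.9, 27.2, 31.2 and 28.6 CPM in stimulated untreated and 57.5, 57.6, 67.4 and 61.0 CPM in stimulated PGE2 cells. Every PGE2 sample of the stimulated cells was above every untreated one, in the unstimulated cells the groups overlapped, and every stimulated sample was below every unstimulated one. Each unstimulated PGE2 sample was above the untreated sample of its own number. PGE2 raised *Itgb3* 2.17-fold in stimulated cells (log2 difference 1.12, SE 0.085) and 1.35-fold in unstimulated cells (0.43, SE 0.115). With beads it fell 4.31-fold without PGE2 (-2.11, SE 0.092) and 2.60-fold with PGE2 (-1.38, SE 0.114), the widest range of group means among the 10 genes. The platelet genes *Pf4*, *Ppbp* and *Gp1bb* had no count in any sample and *Gp9* at most 0.0404 CPM.

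The 2 genes of alphaV beta3 thus moved in opposite directions when beads were added. Per sample, the FPKM of *Itgav* divided by that of *Itgb3* was 0.157 ± 0.0419 (SD, n = 4) in unstimulated untreated and 0.131 ± 0.0287 in unstimulated PGE2 cells, where *Itgb3* was the more abundant mRNA per length in every sample. It was 2.17 ± 0.442 in stimulated untreated cells, with *Itgav* the more abundant in all 4 (1.71 to 2.72), and 0.954 ± 0.253 in stimulated PGE2 cells, with samples on both sides of 1 (0.716 to 1.26).

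**Figure D2:**
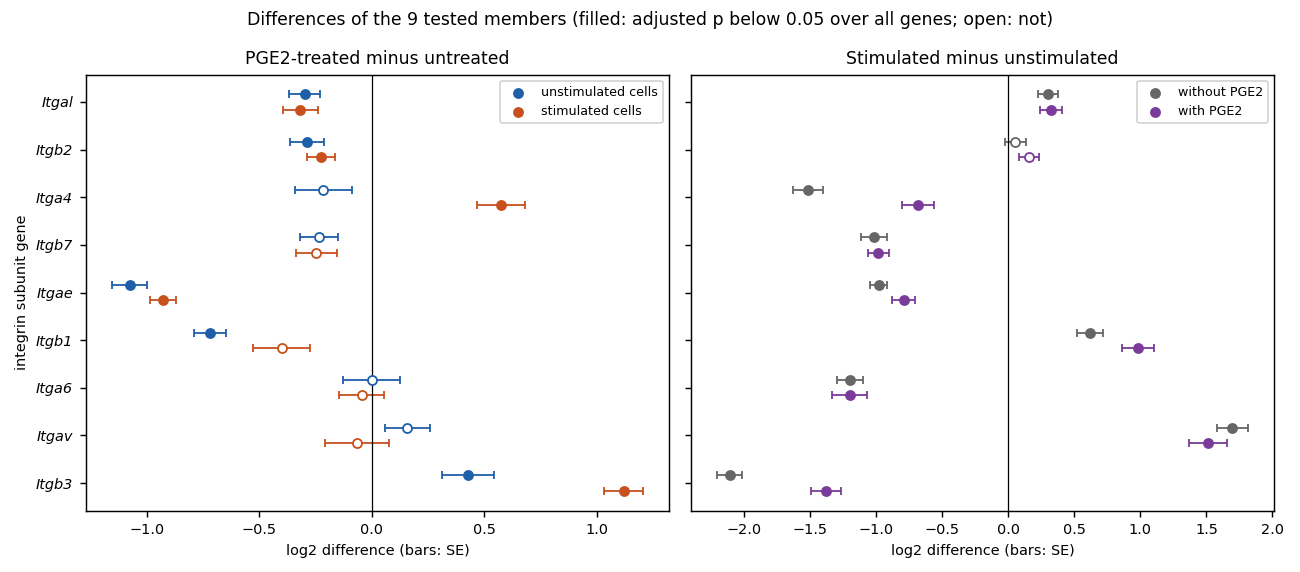
Log2 difference with its SE for each of the 9 tested integrin genes in the 4 comparisons, from edgeR. *Itgb3* is at 1.12 and *Itgae* at -0.93 for PGE2 in stimulated cells, and the bead comparisons run from -2.11 (*Itgb3*) to 1.70 (*Itgav*).

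Whether PGE2 acted differently with and without beads was compared in 1 fit of all 16 samples. By edgeR 0 of the 9 integrin genes were called, beside 0.749% of 15096 genes called and 0.232% that also differed by at least 1 on the log2 scale. At an unadjusted p below 0.05 there were 3, DESeq2 called 2 and limma on FPKM 0. The largest differences between the PGE2 effects were those of *Itga4* (0.80, SE 0.189) and *Itgb3* (0.70, SE 0.160), which were the 2 that DESeq2 called and which were also called with upper-quartile factors, without the filter and with the replicate block. Next came *Itgb1* at 0.33 (SE 0.154) and *Itgav* at -0.21 (SE 0.188), and the other 5 tested genes were between -0.034 and 0.16. The difference for *Itgal* was -0.0072 (SE 0.109) and that for *Itgb7* 0.0038 (SE 0.126).

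Compared per length, by FPKM, *Itgb7* had the highest mean of the 10 genes in every group, at 233, 198, 116 and 97.4 FPKM in unstimulated untreated, unstimulated PGE2, stimulated untreated and stimulated PGE2 cells. In unstimulated untreated cells *Itgb2* (86.0 FPKM), *Itgb1* (61.3), *Itgal* (54.0), *Itgae* (37.4), *Itgb3* (19.4), *Itga4* (5.95), *Itga6* (5.67) and *Itgav* (2.98) followed. Neighbours whose samples overlapped there were *Itgb1* with *Itgal* and *Itga4* with *Itga6*. In stimulated untreated cells the samples of *Itgb1* (95.1 FPKM) overlapped with those of *Itgb7* above and *Itgb2* (90.2) below, *Itgal* (67.2), *Itgae* (19.1), *Itgav* (9.76) and *Itgb3* (4.55) followed apart from each other, and *Itga6* (2.49) and *Itga4* (2.09) overlapped at the end. Between these states *Itgav* therefore went from below to above *Itgb3*. In stimulated PGE2 cells *Itgae* (9.98 FPKM), *Itgb3* (9.80) and *Itgav* (9.25) overlapped, with *Itgav* spread most widely (7.60 to 11.8).

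The make-up of the alpha and beta chains was computed as shares of the summed FPKM of all alpha or all beta genes of the sample. *Itgae* made up 33.1% ± 1.06 (SD, n = 4) of alpha chain FPKM in unstimulated untreated cells, 20.3% ± 1.13 with PGE2, 18.2% ± 0.853 with beads and 11.9% ± 0.850 with both. *Itgal* took most of the remainder, from 47.8% and 50.4% in unstimulated cells without and with PGE2 to 63.9% and 63.8% in stimulated cells. *Itgav* rose from 2.66% and 3.83% to 9.26% and 10.9% in the same order. Of the beta chains, *Itgb7* made up 58.2% and 59.6% without beads and 38.0% and 38.2% with them, *Itgb1* 15.4% and 11.2% and then 31.0% and 27.9%, and *Itgb3* 4.85% and 7.85% and then 1.49% and 3.84%. The beta chain balance thus went with the beads more than with PGE2, while the share of *Itgae* was lower with either.

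**Figure D3:**
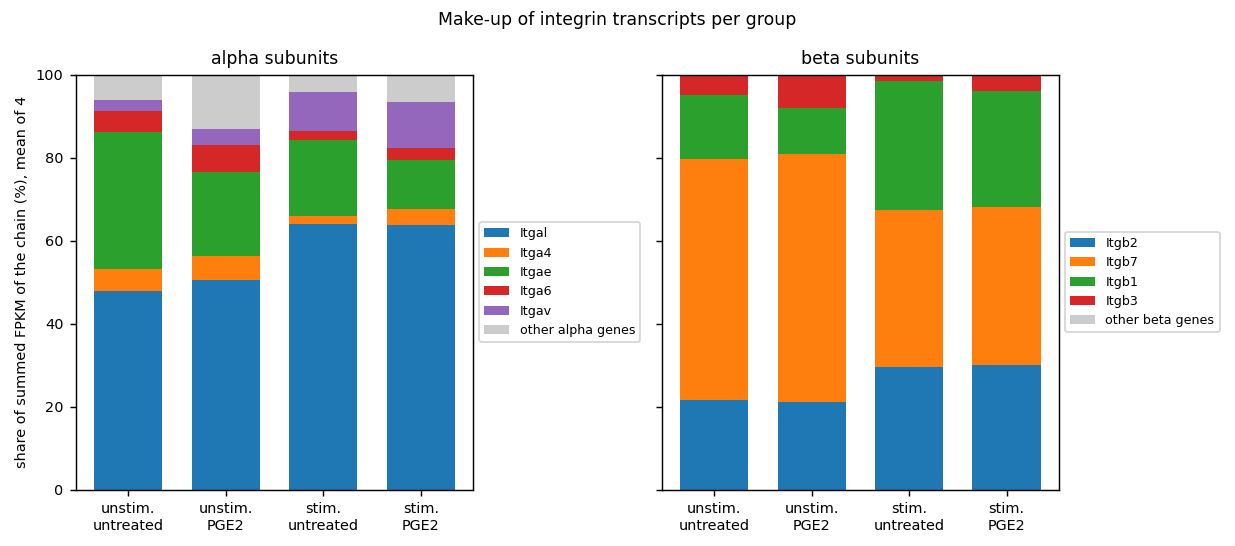
Mean share (percent) of each gene in the summed FPKM of the alpha chain genes (left) and of the beta chain genes (right) in the 4 groups of 4 samples. The share of *Itgae* goes from 33.1% in unstimulated untreated to 11.9% in stimulated PGE2 cells, and that of *Itgb7* from 58.2% to 38.2%.

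For the 3 genes with the widest range of group means, the genes with the nearest pattern over the 16 samples were found by the root mean square (RMS) difference of log2 CPM centred per gene, among 12252 genes. Nearest to *Itgb3* were *Gramd3* (RMS 0.123), *Abtb1* (0.130), *Pcmtd2* (0.134), *Sla2* (0.139) and *Tecpr1* (0.151). Nearest to *Itgae* were *Art2b* (0.173), *Hvcn1* (0.198), *Rab11fip4* (0.205), *Pygm* (0.217) and *Sema4a* (0.218). For *Itgav* they were *Errfi1* (0.111), *Mdfic* (0.114), *Plagl2* (0.115), *Frmd6* (0.122) and *Nfkb1* (0.127), the last a subunit of NF-kB. These distances describe likeness over the same libraries and nothing more.

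Of the 17 other integrin subunit genes, 8 were tested in each PGE2 comparison. In unstimulated cells 2 rose under PGE2 and 0 fell, beside 28.4% of all genes called. *Itga3*, an alpha chain of laminin receptors, rose from 3.12 ± 1.18 to 6.71 ± 1.25 CPM (SD, n = 4, log2 difference 1.11, adjusted p = 0.00519 by edgeR) and *Itga7*, another, from 34.0 ± 3.80 to 61.5 ± 13.3 CPM (0.88, adjusted p = 0.000945 by edgeR). In stimulated cells, where 9.84% of all genes were called, the 1 call was *Itgax*, the alphaX chain (CD11c). It fell from 0.590 to 0.166 CPM at no more than 24 counts per sample (log2 difference -1.77, adjusted p = 0.0216 by edgeR, named after its values were seen). With beads alone 3 rose and 2 fell of 8, beside 66.5% of all genes called. *Itga7* fell to 3.49 ± 2.71 CPM (log2 difference -3.37, adjusted p = 1.01e-05 by edgeR), *Itga2* fell from 4.48 to 0.845 CPM (-2.44, adjusted p = 2.32e-06), and *Itga5*, the fibronectin receptor chain, rose from 4.11 to 10.2 CPM (1.29, adjusted p = 3.67e-06). With PGE2 present, beads raised 2 and lowered 4 of 9, beside 64.2% of all genes, among them *Itgb4* (log2 difference -1.54, adjusted p = 0.000773 by edgeR). With the replicate block 3 of these genes were called for PGE2 in stimulated cells and 5 in unstimulated cells, beside 5544 of 13922 and 6938 of 14505 genes. In the alpha chain sum *Itga7* was at 3.56% and 8.50% of alpha FPKM in unstimulated cells without and with PGE2 and 0.397% and 1.39% in stimulated cells.

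The genes around the switch of integrins from the bent to the extended form formed a list of 28, of which 26 were tested. It holds genes that drive the switch and genes that oppose it, such as *Rap1gap2*, so its counts and medians show no direction of activation. With PGE2 5 rose and 3 fell in stimulated cells, and 5 rose and 7 fell in unstimulated cells, beside 9.84% and 28.4% of all genes called, with medians of -0.033 and 0.017 on the log2 scale. With the replicate block 17 were called for PGE2 in stimulated and 16 in unstimulated cells, beside the same 5544 and 6938 genes. With beads 3 rose and 17 fell without PGE2, and 2 rose and 16 fell with PGE2, beside 66.5% and 64.2% of all genes called, with medians of -0.58 and -0.38. *Rasgrp2*, the calcium-dependent exchange factor for Rap1, was at 468 ± 76.7 CPM in unstimulated untreated, 300.5 ± 58.2 in unstimulated PGE2, 148 ± 12.9 in stimulated untreated and 106 ± 5.61 CPM in stimulated PGE2 cells (SD, n = 4). It fell with beads, at a log2 difference of -1.67 without PGE2 and -1.49 with it (adjusted p = 1.4e-07 and 3.24e-06 by edgeR), and under PGE2, at -0.48 with and -0.62 without beads (adjusted p = 0.00436 and 0.00736). *Rap1gap2*, which turns Rap1 off, fell in all 4 comparisons too, from 35.3 ± 8.22 to 13.9 ± 3.09 CPM under PGE2 in unstimulated cells (log2 difference -1.33, adjusted p = 0.000247) and to 8.88 ± 1.51 CPM with beads (-1.99, adjusted p = 7.02e-07). *Rapgef3* (Epac1), an exchange factor for Rap1 that is opened by cAMP, rose under PGE2 from 1.82 ± 0.295 to 5.09 ± 1.45 CPM in unstimulated cells (1.50, adjusted p = 0.000605 by edgeR) and fell with beads to 0.359 ± 0.117 CPM (-2.37, adjusted p = 7.83e-06). *Fyb* (ADAP), an adaptor that brings Rap1 effectors to the membrane, rose under PGE2 from 247 to 396 CPM without beads (0.70, adjusted p = 1.35e-05) and from 102 to 172 CPM with them (0.77, adjusted p = 0.0163). The direct activators, named after their values were seen, moved less. Talin (*Tln1*) fell with beads both without PGE2 (-0.60, adjusted p = 5.92e-05 by edgeR) and with it (-0.47, adjusted p = 0.000441). Kindlin-3 (*Fermt3*) was between 311 and 336 CPM in every group mean.

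Of 27 genes of the adhesion complex and its signalling, 24 were tested. Under PGE2 0 rose and 3 fell in stimulated cells, and 3 rose and 2 fell in unstimulated cells (12 and 13 called with the replicate block), beside the shares of all genes given above. *Nedd9*, a docking protein below integrins, fell from 71.0 ± 9.28 to 43.0 ± 11.1 CPM in stimulated cells (log2 difference -0.72, adjusted p = 0.0282 by edgeR), and *Vasp*, which promotes actin assembly, from 617 ± 72.9 to 445 ± 44.3 CPM (-0.46, adjusted p = 0.0188). In unstimulated cells *Bcar1* rose from 2.89 to 5.57 CPM (0.96, adjusted p = 0.0286 by edgeR) and *Vcl*, vinculin, from 5.38 to 7.30 CPM (0.46, adjusted p = 0.0194). The call of *Nedd9* was kept in 4, *Vasp* in 5, *Bcar1* in 3 and *Vcl* in 6 of 8 fits with 1 library left out. With beads 7 rose and 11 fell without PGE2, beside 66.5% of all genes called, with *Actn1* (alpha-actinin 1) at -1.21 (adjusted p = 0.000264 by edgeR) the 1 DEG. With PGE2 5 rose and 11 fell, beside 64.2% of all genes called, and *Lpxn* (leupaxin, -0.86, adjusted p = 3.42e-05) and *Actn1* (-0.85, adjusted p = 0.00339) changed most.

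Integrin ligands formed a list of 28 genes, of which 10 to 13 were tested in a comparison. PGE2 lowered *Cdh1*, E-cadherin, the ligand of alphaE beta7, from 5.23 ± 0.829 to 2.30 ± 0.376 CPM in unstimulated cells (log2 difference -1.18, adjusted p = 0.000346 by edgeR) and from 2.88 ± 0.488 to 0.794 ± 0.0735 CPM in stimulated cells (-1.84, adjusted p = 0.000555). It raised *Fn1*, fibronectin, from 0.766 ± 0.419 to 2.41 ± 0.558 CPM (1.64, adjusted p = 0.00390) and from 1.20 ± 0.528 to 2.96 ± 1.08 CPM (1.33, adjusted p = 0.0430) in the same order. The second of these calls was kept in 2 of 8 fits, those without stimulated untreated replicate 4 or stimulated PGE2 replicate 1. In stimulated cells these 2 were the only calls among 11 tested by edgeR, beside 9.84% of all genes called. With the replicate block 7 were called, beside 5544 of 13922 genes. In unstimulated cells 4 rose and 4 fell of 12, beside 28.4% of all genes called. *Tgfb3* (1.56, adjusted p = 0.00778 by edgeR) and *Lama5* (1.33, adjusted p = 0.000436) were among those that rose. With beads 4 of 10 rose and 1 fell without PGE2, and 3 of 13 rose and 2 fell with it, beside 66.5% and 64.2% of all genes called. *Icam1*, the ligand of LFA-1, rose from 51.7 ± 4.02 to 153 ± 10.1 CPM without PGE2 (1.55, adjusted p = 2.41e-08 by edgeR) and by 1.44 with it (adjusted p = 3.98e-06), *Tgfb1*, whose latent form is bound by alphaV integrins, from 155 ± 6.99 to 368 ± 20.1 CPM (1.23, adjusted p = 4.47e-08) and by 1.10 (adjusted p = 3.71e-06), and *Icam5* from 1.23 to 9.71 CPM (2.98, adjusted p = 1.51e-07). *Vcam1*, the ligand of VLA-4, had at most 1 count in any sample.

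**Figure D4:**
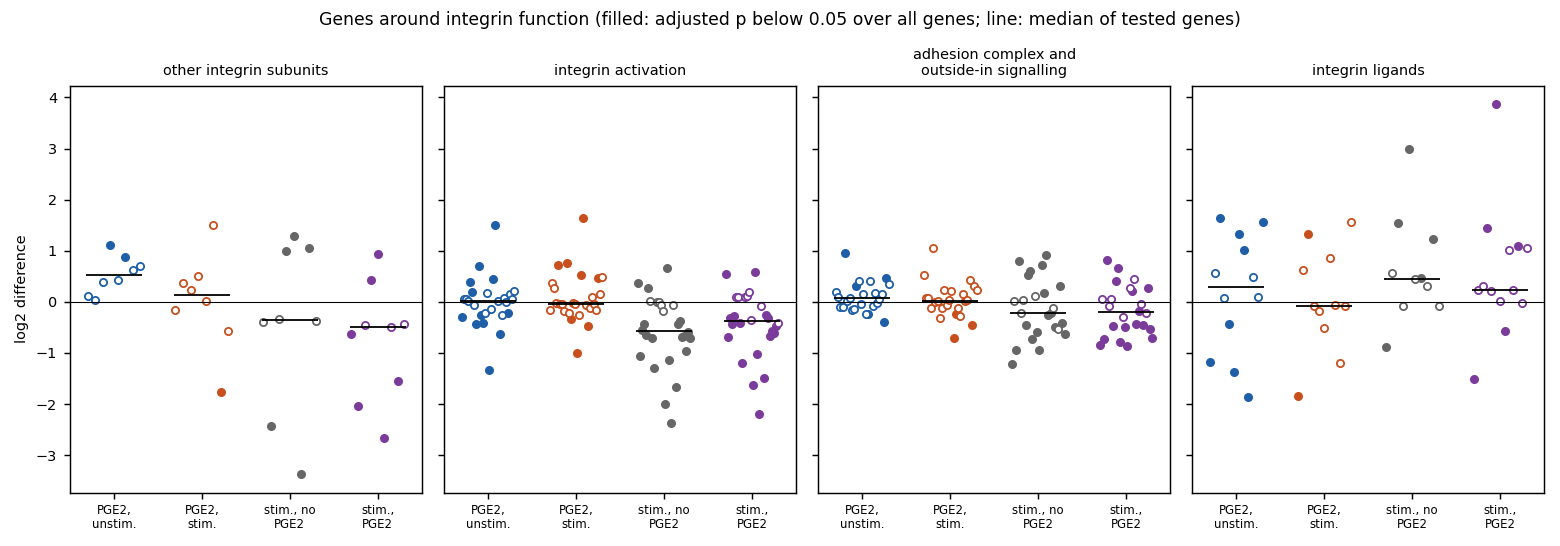
Log2 differences of the genes of the 4 lists (other integrin subunits, integrin activation, adhesion complex, ligands) in the 4 comparisons, 1 point per tested gene, with called genes filled and a line at the median of the tested genes. The median of the activation list is at -0.58 for beads without PGE2 and at -0.033 and 0.017 for PGE2 with and without beads.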

How the data were processed

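RNA was sequenced from 16 samples, 4 in each of 4 groups named from the sample titles. The authors made poly(A) libraries, aligned paired reads to GRCm38 (mm10) with HISAT2 2.0.5 and counted them per gene with featureCounts 1.5.0-p3. They deposited raw counts, and FPKM values that the authors derived from these counts and gene length. Annotation release and use of strand are not given in the sources used here, so reads of overlapping genes on opposite strands may be mixed.

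The counts were fitted in edgeR 4.0.16 (R 4.3.3) after filterByExpr (minimum count 10) with TMM factors and tested by its two-sided quasi-likelihood test, with Benjamini-Hochberg adjustment over all genes. Each pairwise fit held the 8 samples compared and no covariate, and the interaction held all 16. The study tested with DESeq2 1.20.0 and required an adjusted p under 0.05 with at least a 2-fold change. CPM used TMM-scaled totals. FPKM served for levels between genes. TMM factors were 0.88 to 1.09, and the biological coefficient of variation was 0.115 to 0.139. Replicates of a group differed by more than sampling noise (chi-square per degree of freedom 8.46 to 56.8). Nothing says that replicates came from separate animals or cultures, so the p-values measure the spread between these samples, which may be technical. Only the edgeR fit for PGE2 in stimulated cells was tried on simulated counts, drawn with independent replicates. The other fits were not tried in this way.

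Same-numbered samples deviated together from their group means, with correlations of 0.415 to 0.609 for PGE2 in stimulated cells, 0.263 to 0.625 for PGE2 in unstimulated cells and 0.213 to 0.491 for beads without PGE2, and of 0.0587 to 0.420 for beads with PGE2. Differently numbered samples ranged from -0.576 to 0.441, -0.531 to 0.186, -0.406 to 0.218 and -0.373 to 0.259 in the same order. These ranges overlapped with the same-numbered ones except for PGE2 in unstimulated cells. Between the stimulated groups, replicates 1 and 2 deviated alike (up to 0.396) and opposite to 3 and 4 (-0.576 to -0.338). In the first 3 comparisons each sample was still most like that of its own number. The numbers were therefore taken to pair the samples there. This pairing comes from the data and not from the labels. The main fits do not use it. The SEs, calls and adjusted p-values are from these unpaired fits unless another setting is named.

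The alternatives were RLE and upper-quartile factors, no filter, DESeq2 1.42.0, limma 3.58.1 (trend) on log2(FPKM + 1) where the mean FPKM was 1 or more, the replicate number as a block, all 16 samples fitted together, and every library omitted once. The 10 integrin genes, the gene and marker lists and the tests were chosen with earlier results of these data known. Named from each list were, per comparison, up to 4 DEGs with the largest change and a mean of at least 1 CPM, or the 2 largest calls where no gene was a DEG, and exceptions are marked. Overlap with other genes was checked in GENCODE M21 for the 10 integrin genes only.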

Additional observations from a re-analysis of the deposited data

Results flagged for a closer look

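Among 36 sets of 4 samples (each of the 9 tested integrin genes in each group), 1 held a sample far from the others by Dixon's test. *Itgb7* in unstimulated untreated replicate 4 was at 576.6 CPM, while the other 3 replicates were between 703.9 and 726.6 CPM (ratio of gap to range 0.849, critical value 0.829). Chance marks about 1 in 20 such sets.

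Of the listed genes, 1 had a PGE2 effect that differed between stimulated and unstimulated cells by edgeR without the replicate block. With the block *Nedd9* was called as well. *Lamc1*, the gamma1 chain of laminin, a ligand of alpha6 beta1, differed by -1.06 on the log2 scale (SE 0.121, adjusted p = 0.000873 by edgeR over all genes). Its level was 30.1 ± 3.57 CPM in unstimulated untreated and 60.0 ± 1.99 CPM in unstimulated PGE2 cells, against 41.9 ± 2.22 and 40.0 ± 3.76 CPM in stimulated cells (SD, n = 4). The call was kept in all 6 other settings and in all 16 fits that left out 1 library.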

How the results depend on the processing

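Of 549 recomputed differences of single integrin genes, 538 moved by less than the spread between replicates, and no called difference changed sign. Calls for beads were kept by all 8 called genes in every setting and every fit with 1 library left out. Members called for PGE2 in stimulated cells numbered 3 to 5 with 1 library left out, against 5, and all genes called 630 to 1854, 2064 in DESeq2, 5544 with the replicate block and 2161 in 1 fit of all 16 samples, against 1370. The lowest count, 630, was that without stimulated untreated replicate 2 and without stimulated PGE2 replicate 3. In unstimulated cells 8 integrin genes were called with the replicate block and 3 to 7 with 1 library left out, against 5, and 6938 of all genes with the block, against 4122. For the interaction, 2 integrin genes (*Itga4* and *Itgb3*) were called with upper-quartile factors (of 129 of 15096 genes called), 2 without the filter (147 of 28205), 2 in DESeq2, 2 with the replicate block and 0 to 2 with 1 library left out, against 0. All genes called for it were 237 in DESeq2, 43 in limma on FPKM, 408 with the block and 44 (without unstimulated untreated replicate 2) to 217 (without stimulated PGE2 replicate 4), against 113. The cause of these changes was not tested. Apart from the calls named in the text, the replicate block added that of *Itgb2* for beads with PGE2, where the numbers did not pair the samples, and ended none of the integrin genes. The share of higher genes among calls was 48.0% with the block against 61.4% for PGE2 in stimulated cells, 37.2% in limma against 69.0% for the interaction, and 41.8% with upper-quartile factors against 50.7% for beads with PGE2, where this scaling moved the median of all genes by -0.13. Depth limits *Itga1* and the genes near 1 CPM.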
